A study of Homo sapiens with 37 samples.

Results

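RNA near the translation initiation helicase eIF4A was compared between HEK293T cells given hippuristanol and HEK293T cells given DMSO. The comparison rests on 4 streptavidin pulldowns, 2 with hippuristanol and 2 with DMSO, chosen by their titles and column names. With the 2 hippuristanol inputs and the 1 DMSO input, used as a check on total RNA, 7 of the 37 libraries of the series enter. HEK293T is a human embryonic kidney line, and all 7 libraries came from cells carrying APEX-eIF4A, a fusion of a peroxidase to eIF4A. The paralogue of eIF4A, the promoter and the number of clones are not given in the labels. The same holds for the dose of hippuristanol and the time of exposure. Cells were given 500 µM biotin-phenol for 30 min and 1 mM H2O2 for 1 min, after which biotinylated RNA was bound to streptavidin beads. T0 and T20 pulldowns, labelled naive and heat shock, with the same construct and 2 libraries each, served as further reference points. The labels give T0 and T20 without a unit.

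eIF4A is an RNA helicase that unwinds structure near the 5′ end of mRNAs as part of the cap-binding complex eIF4F, together with the cap-binding protein eIF4E and the scaffold eIF4G. Hippuristanol is a natural product that binds eIF4A and blocks its engagement of RNA, which lowers translation initiation. Inhibition of eIF4A can also lead to stress granules, assemblies of untranslated mRNA and initiation factors. APEX oxidises biotin-phenol to a short-lived radical that tags molecules close to the fusion protein, so a pulldown samples RNA near the bait.

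The deposited tables give versioned Ensembl gene IDs without names, and 0 of 60483 IDs matched the gene table used here. RNAs are therefore described by ID and by classes measured in other libraries. The bait mRNA, the markers of HEK293T and of other cell types, and the listed pathways could not be looked up, so the label of the cell line was not tested. The hippuristanol inputs carry a stress label that reads heat shock, against their titles. At the 3 IDs that were higher in T20 than in T0 inputs (edgeR quasi-likelihood test, adjusted p under 0.05), the median level was 10.68 and 10.97 log2 CPM in the T20 inputs. It was 7.72 and 8.11 in the T0 inputs, 8.32 and 8.52 in the hippuristanol inputs and 7.83 in the DMSO input. The hippuristanol inputs thus lay nearer to T0 than to T20 at these IDs. CPM is the count scaled to a common library size after TMM, a correction for differences in library make-up.

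The 4 pulldowns held 850907 to 1221213 counts and the 3 inputs 6896137 to 7782943. The 10 IDs that led the 4 pulldowns held 31.1% ± 0.71 of counts in the DMSO, 35.9% ± 4.62 in the hippuristanol, 44.8% ± 9.74 in the T0 and 29.3% ± 1.80 in the T20 pulldowns (SD, n = 2 each). The same IDs held 0.0998% of counts in the single DMSO input and 0.0535% ± 0.0462 in the hippuristanol inputs (SD, n = 2). T0 pulldown replicate 2 stood apart, with 51.7% of its counts in those IDs (one library, whose counting error is far below the spread between replicates). Replicates differed beyond sampling noise, with a chi-square per ID of 11.4 for the hippuristanol and 22.6 for the DMSO pulldowns, so no pair was a library deposited more than once.

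The second hippuristanol pulldown detected more RNA species than the other 3. At the total of the shallowest pulldown of the table, 707356 counts, 15681 IDs were expected in hippuristanol pulldown replicate 2 and 12329 in replicate 1. The DMSO pulldowns gave 11102 and 11527 IDs at that total, the T0 pulldowns 11989 and 11574, and the T20 pulldowns 13042 and 13608. With the 10 leading IDs left out and 341459 counts each, the values were 15048 and 12037 for hippuristanol and 10724 and 11179 for DMSO. Both hippuristanol pulldowns therefore lay above both DMSO pulldowns, replicate 2 by much more than replicate 1. With 2 libraries against 2, the smallest p that a 2-sided exact permutation test can give is 0.333, so no single value can pass a threshold of 0.05 by that test.

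**Figure D1:**
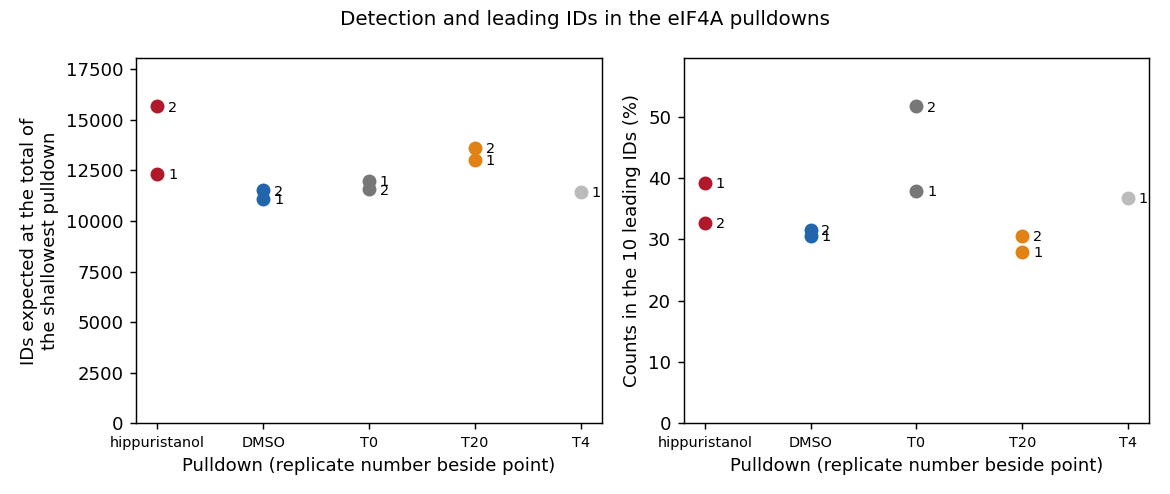
Left, the number of IDs expected at 707356 counts in each APEX-eIF4A pulldown. Right, the percent of counts in the 10 leading IDs. Each point is 1 library with its replicate number, and hippuristanol replicate 2 lies highest at left with 15681 IDs.

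Differences between hippuristanol and DMSO pulldowns were no larger than differences between the 2 DMSO pulldowns. Over the 4168 IDs with a mean of at least 5 log2 CPM in the 4 pulldowns, the median absolute difference was 0.52 log2 units between the hippuristanol replicates and 0.72 between the DMSO replicates. Between groups it was 0.70 and 0.68 for hippuristanol replicate 1 against DMSO replicates 1 and 2, and 0.62 and 0.58 for hippuristanol replicate 2. Each DMSO pulldown was thus closer to either hippuristanol pulldown than to the other DMSO pulldown. Pearson correlations over the same IDs were 0.76 between the hippuristanol replicates, 0.58 between the DMSO replicates, and 0.61, 0.63, 0.69 and 0.72 between groups, where the last pair of values belongs to hippuristanol replicate 2. IDs are not independent replicates, and these values describe the libraries only.

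**Figure D2:**
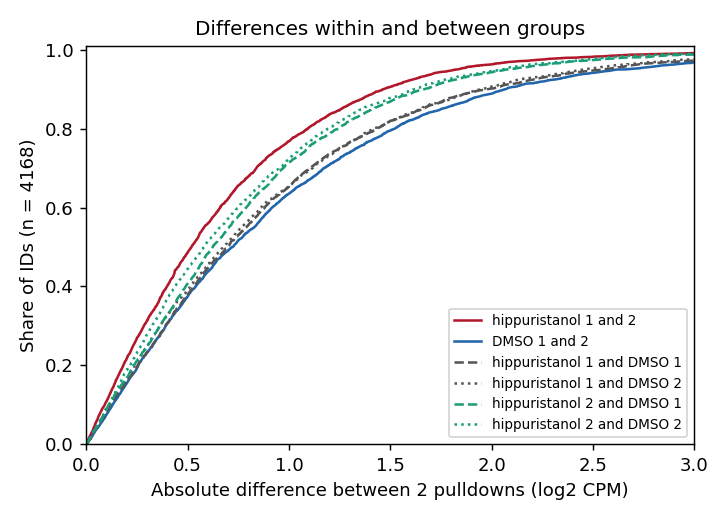
Cumulative share of the 4168 IDs against the absolute log2 CPM difference between 2 pulldowns. The curve of the DMSO pair runs lowest over most of the range, with a median of 0.72, and that of the hippuristanol pair highest, with a median of 0.52.

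No RNA passed the test of hippuristanol against DMSO in pulldowns. Of 16678 tested IDs, 0 (0%) were called by edgeR's quasi-likelihood test at an adjusted p under 0.05, and the smallest adjusted p was 0.0534. An unadjusted p under 0.05 was found for 2394 IDs (14.4%), 1800 higher (10.8%) and 594 lower (3.56%) with hippuristanol. Of the 1800, 1022 (56.8%) had no count in either DMSO pulldown. Of the 594, 287 (48.3%) had none in either hippuristanol pulldown. Summed over the 4 pulldowns, the higher IDs had a median of 26 counts and the lower IDs of 55. Standard errors of the log2 fold change had a median of 1.39 over all tested IDs and of 0.63 over the 4168 better measured ones. Among those 4168, 317 (7.61%) had such a p, 176 higher (4.22%) and 141 lower (3.38%), so the excess of higher IDs lay mostly among RNAs with few counts. No label says that replicates came from separate cultures, so the p-values speak for the spread of these libraries alone, and that spread may be technical. In bulk RNA, fewer cells holding an RNA and less of it per cell cannot be told apart. DESeq2 called 721 IDs (5.12% of those with an adjusted p), 585 higher and 136 lower, of which 65.3% had no count in at least 1 of the 4 libraries. Fitted on the 9 pulldowns alone, edgeR called 9 IDs, all higher. That fit gave 497 higher and 173 lower IDs at an unadjusted p under 0.05, and the 4 libraries alone gave 273 and 144. The count of calls was 7 without DMSO pulldown replicate 1 and 14 without replicate 2, all higher. The 594 became 222 without hippuristanol pulldown replicate 1 and 932 without DMSO pulldown replicate 2.

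The excess of higher IDs differed between levels of total RNA. IDs were split into quartiles by their mean level in the inputs, which are separate libraries. From the lowest quartile to the highest, 355, 717, 431 and 297 IDs were higher and 238, 133, 80 and 143 lower at an unadjusted p under 0.05. The higher IDs thus made up 59.9%, 84.4%, 84.3% and 67.5% of those with such a p, most in the middle quartiles. Hippuristanol pulldown replicate 2 lacked 55.5%, 9.69%, 0.552% and 0% of the IDs of these quartiles and replicate 1 lacked 71.9%, 36.1%, 10.1% and 0.504%. DMSO pulldown replicate 1 lacked 75.3%, 43.9%, 15.9% and 1.29%, and replicate 2 lacked 72.9%, 44.8%, 14.8% and 1.65%. In quartile 2, which had the most higher IDs, 9.69% were at 0 in hippuristanol replicate 2 and 43.9% and 44.8% in the DMSO pulldowns. The part of detection in the excess was not tested. Without hippuristanol pulldown replicate 2, 1541 IDs were higher and 828 lower at that p.

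RNAs seen in 1 group and at 0 in the other were more often seen with hippuristanol. Of 16678 tested IDs, 3520 were at 0 in both DMSO pulldowns and 2101 in both hippuristanol pulldowns. Both hippuristanol pulldowns held, and both DMSO pulldowns lacked, 753 tested IDs, of which 500 were also seen in a T0 pulldown. The reverse held for 93 IDs, 49 of them seen at T0. With at least 10 counts asked of each library, the numbers were 130 and 24. These 130 had a median of 100 counts in the DMSO input, so they were not absent from total RNA. A count of 0 in these libraries allows a low level and is no sign of absence.

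**Figure D3:**
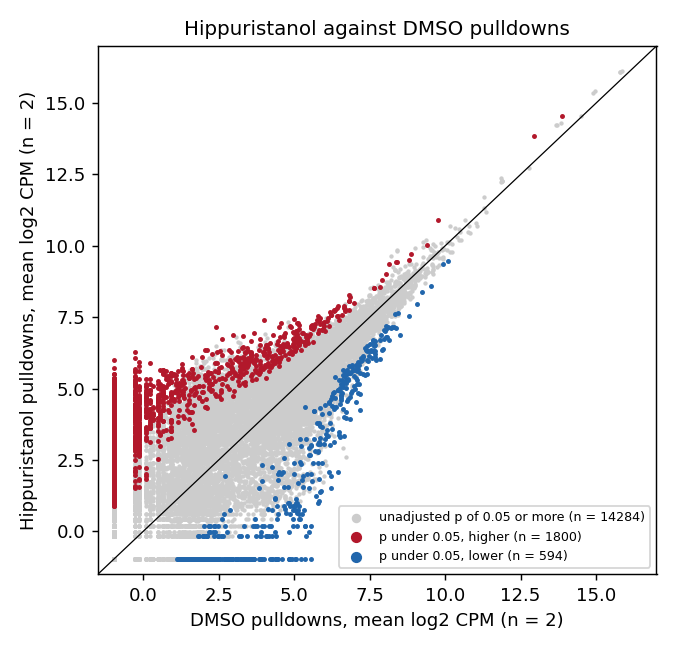
Mean log2 CPM of the 2 hippuristanol pulldowns against that of the 2 DMSO pulldowns for 16678 tested IDs. Coloured points have an unadjusted edgeR p under 0.05, 1800 higher and 594 lower with hippuristanol, and the rows of points at the lower and left edges are IDs without a count in both libraries of a group.

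Levels did not overlap between groups for 3128 IDs that were higher (18.8%) and 1602 that were lower (9.61%) with hippuristanol. Among the 4168 better measured IDs the numbers were 739 (17.7%) and 761 (18.3%), with a median log2 fold change of -0.05. From these, the 2 with the smallest edgeR p in each direction are given in full. None passed the adjusted threshold, and these levels were themselves used to choose them.

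ENSG00000124181.13 measured 152.9 and 140.3 CPM with hippuristanol and 26.9 and 30.3 CPM with DMSO. Those values rest on 111 and 138 counts against 32 and 28. Its log2 fold change was 2.36 ± 0.47 (SE; edgeR adjusted p = 0.115). The T0 pulldowns, at 97.2 and 52.6 CPM, lay between the groups, and the T20 pulldowns, at 140.1 and 216.5 CPM, near or above hippuristanol. Its inputs were alike, with 151.8 CPM ± 32.3 (SD, n = 2) for hippuristanol and 144.9 CPM in the single DMSO input. The DMSO pulldowns are the low values here, below all other pulldowns named.

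ENSG00000126464.12 measured 165.3 and 145.4 CPM with hippuristanol and 38.6 and 14.1 CPM with DMSO, from 120, 143, 46 and 13 counts. Its log2 fold change was 2.54 ± 0.57 (SE; edgeR adjusted p = 0.133), with 3.46 without DMSO pulldown replicate 1 and 2.01 without replicate 2. Its T0 pulldowns held 107.7 and 74.1 CPM and its T20 pulldowns 209.1 and 228.2 CPM. Again the DMSO pulldowns were lowest and T0 lay between. The inputs held 80.4 CPM ± 30.9 (SD, n = 2) with hippuristanol and 71.3 CPM with DMSO.

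ENSG00000119638.11 measured 11.02 and 30.5 CPM with hippuristanol and 137.6 and 149.6 CPM with DMSO, from 8, 30, 164 and 138 counts. Its log2 fold change was -2.76 ± 0.56 (SE; edgeR adjusted p = 0.115), with -3.70 without hippuristanol pulldown replicate 2 and -2.23 without replicate 1. The T0 pulldowns, at 119.6 and 69.3 CPM, and the T20 pulldowns, at 99.6 and 58.6 CPM, were both above hippuristanol. Here the hippuristanol pulldowns are the ones that differ from the rest. The inputs held 95.8 CPM ± 6.38 (SD, n = 2) with hippuristanol and 108.9 CPM with DMSO.

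ENSG00000107862.4 measured 17.9 and 36.6 CPM with hippuristanol and 160.3 and 83.5 CPM with DMSO, from 13, 36, 191 and 77 counts. Its log2 fold change was -2.15 ± 0.55 (SE; edgeR adjusted p = 0.176), with -2.77 without hippuristanol pulldown replicate 2 and -1.59 without DMSO pulldown replicate 1. T0 pulldowns held 77.8 and 90.8 CPM and T20 pulldowns 77.7 and 98.3 CPM, both near DMSO replicate 2. The T4 pulldown, a single library of the same construct, held 41.1 CPM, near hippuristanol replicate 2. As for the ID before, hippuristanol held the low values while the inputs, at 82.5 CPM ± 7.95 (SD, n = 2) and 86.7 CPM, were close. DESeq2 gave these 4 IDs adjusted p-values of 0.000228, 0.000922, 0.000228 and 0.00154 in the order described.

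**Figure D4:**
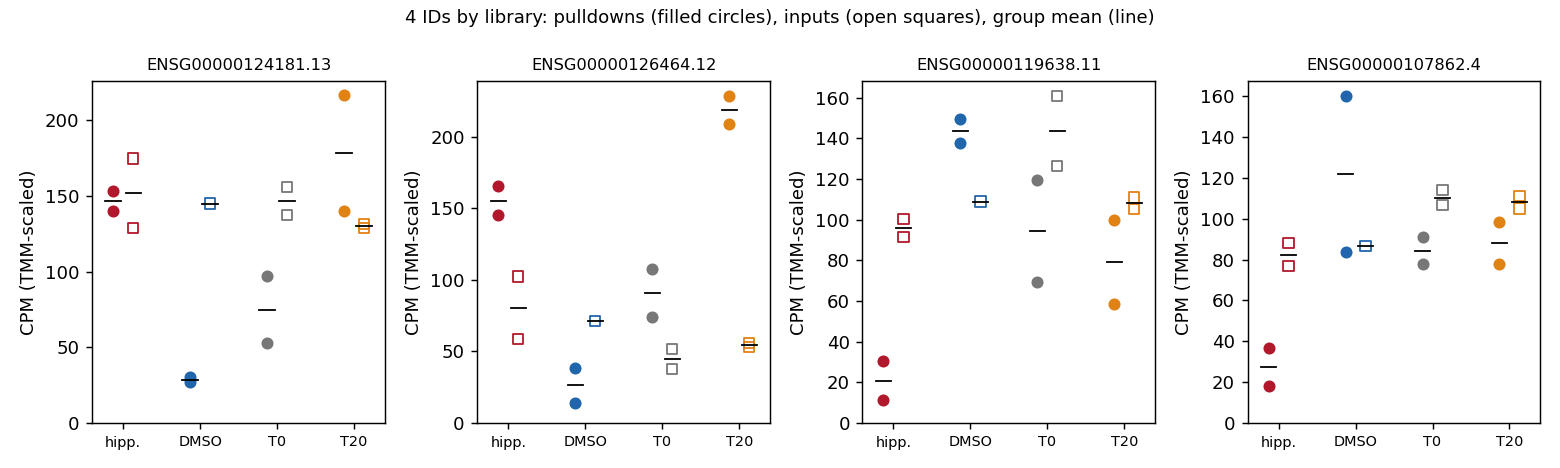
CPM of 4 IDs in the pulldowns (filled circles) and inputs (open squares) of 4 conditions, with the mean of each group as a line. For ENSG00000124181.13 and ENSG00000126464.12 the DMSO pulldowns lie lowest, and for ENSG00000119638.11 and ENSG00000107862.4 the hippuristanol pulldowns do.

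In total RNA, the DMSO input was as close to each hippuristanol input as these were to each other. Over the 4168 better measured IDs, it differed from hippuristanol inputs 1 and 2 by a median of 0.16 and 0.29 log2 units, and the hippuristanol inputs differed from each other by 0.32. A difference under 1 log2 unit was found for 99.6% and 99.0% of these IDs, and for 97.8% between the hippuristanol inputs. The test between inputs had little power, with 1 DMSO input, which was taken to vary like the other groups, and a median standard error of 1.58 log2 units. With edgeR it called 0 of 16678 IDs (0%), and 3 (0.018%) had an unadjusted p under 0.05, 1 higher (0.006%) and 2 lower (0.012%). DESeq2 called 0 as well, and no statement on total RNA is drawn from these counts. The input-adjusted comparison, pulldown over input with hippuristanol minus the same with DMSO, called 0 IDs (0%) with edgeR and 919 (5.51%) had an unadjusted p under 0.05, 780 higher (4.68%) and 139 lower (0.833%). DESeq2 called 15, of which 14 were higher. Leaving out DMSO pulldown replicate 1 gave 1 edgeR call, and leaving out replicate 2 gave 3.

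Classes of RNA were formed from the naive libraries, which share no sample with the drug libraries. IDs higher or lower in a construct's pulldown than in its input (edgeR adjusted p under 0.05) were followed in the hippuristanol and DMSO pulldowns. They are called enriched or depleted by that construct, which describes recovery in its pulldown and no action of the protein. The constructs were eIF4A and eIF4E, both parts of the cap-binding complex, CBX1, a chromatin protein, C1-APEX and APEX-GFP. The background for each class is the median log2 fold change of the same fit. With TMM on all 17 libraries, it was 0.05 over all tested IDs and -0.05 over the better measured ones. No class was tested, and the levels of its members give a description.

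RNAs depleted by eIF4A in naive cells had a median above the background. Of the 127 such IDs, 126 were tested, with a median log2 fold change of 0.43. The median level over the class was 7.40 and 7.42 log2 CPM in the hippuristanol pulldowns and 7.13 and 7.15 in the DMSO pulldowns, so the groups did not overlap. Levels of 64 members (50.8%) were higher without overlap and of 9 (7.14%) lower, beside 18.8% and 9.61% of all tested IDs. An unadjusted edgeR p under 0.05 was found for 9 higher and 4 lower members, 10.3% of the class beside 14.4% of all tested IDs. Among the better measured IDs, which hold 108 of the 126, 7.61% had such a p. Of those better measured IDs, 17.7% were higher and 18.3% lower without overlap. The class median was 0.27 without hippuristanol pulldown replicate 2, beside 0 over all tested IDs. It was 0.52 without DMSO pulldown replicate 2, beside 0.28. With DMSO pulldown replicate 1 left out, the class median was 0.36, nearer to the 0.24 over all tested IDs. Scaled by library size without TMM, the class had a median of 0.28, beside 0 over all tested IDs. In the T20 pulldowns the class stood at 7.35 and 7.40 and in the T0 pulldowns at 8.09 and 9.01, so DMSO was the lowest of the 4 conditions and hippuristanol lay next to T20. The class holds 6 of the 10 leading IDs, whose share of counts was also lowest in T20 and DMSO and highest in T0, and the part of that share in the class median was not tested. Of the 126, 32 followed another member at a correlation of at least 0.99 over the 9 pulldowns and may share reads with near-identical copies. Without them the median was 0.25, with 39 of 94 higher and 9 lower without overlap.

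The class that eIF4E had depleted shares 99 of its 160 IDs with the former, whose 127 IDs include the same 99. Its 159 tested members of 160 had a median log2 fold change of 0.40, and class medians of 7.17 and 7.24 log2 CPM with hippuristanol against 6.65 and 6.98 with DMSO. Without overlap, 69 (43.4%) were higher and 15 (9.43%) lower, beside 18.8% and 9.61% of all tested IDs. An unadjusted p under 0.05 was found for 10.1% of the class beside 14.4% of all. Among the better measured IDs, which hold 131 of the 159, 7.61% had such a p. Of those better measured IDs, 17.7% were higher and 18.3% lower without overlap. The class holds 9 of the 10 leading IDs and 35.8% of the counts of the 4 pulldowns. Of its members, 39 followed another at a correlation of at least 0.99, and the other 120 had a median of 0.25, with 39 higher and 15 lower without overlap. Scaled by library size the class median was 0.24, beside 0 over all tested IDs. Without DMSO pulldown replicate 1 it was 0.28, beside 0.24 over all tested IDs.

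RNAs that eIF4A and eIF4E had enriched in naive cells had medians near the background. The 144 eIF4A-enriched IDs had a median log2 fold change of -0.06, with 26 (18.1%) higher and 35 (24.3%) lower without overlap. Most of them, 135, are among the better measured IDs, where 17.7% and 18.3% did not overlap. Their class medians were 7.19 and 7.24 log2 CPM with hippuristanol and 7.53 and 7.02 with DMSO, so the DMSO replicates enclosed both hippuristanol values. The 152 eIF4E-enriched IDs, of which 77 are in the eIF4A class, had a median of -0.10, with 23 (15.1%) higher and 35 (23.0%) lower, beside the same 17.7% and 18.3%, and 139 of them are better measured. Without DMSO pulldown replicate 1 the medians were 0.08 and 0.07, below the 0.24 over all tested IDs. Without hippuristanol pulldown replicate 1 the first was 0.04, beside 0 over all tested IDs. Neither class was tested, so no direction is read for them.

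For the other constructs, the IDs enriched by CBX1 had the highest median, 0.35 over 185 tested members, with 47 (25.4%) higher and 17 (9.19%) lower without overlap, beside 18.8% and 9.61% of all tested IDs. Their class medians were 5.24 and 5.50 log2 CPM with hippuristanol and 5.16 and 4.73 with DMSO, and 5.92 and 5.82 at T20. The 91 better measured members had a median of 0.10, below that of the class as a whole. Over the class it was 0.04 without hippuristanol pulldown replicate 2, beside 0 over all tested IDs. Without DMSO pulldown replicate 1 it was 0.70, beside 0.24 over all tested IDs. IDs enriched by C1-APEX had a median of 0.12 over 351 members, which was -0.03 with library size scaling, and those enriched by GFP -0.06 over 238. Depleted IDs gave -0.01 for CBX1, 0.05 for C1-APEX and 0.11 for GFP. Of the 260 GFP-depleted IDs, 79 (30.4%) were higher and 34 (13.1%) lower without overlap, beside the same 18.8% and 9.61%. Of the 287 CBX1-depleted IDs, 69 were higher and 52 lower, and of the 442 C1-APEX-depleted IDs, 95 and 54. An excess of higher over lower members was thus not limited to the eIF4A-depleted and eIF4E-depleted classes. How many IDs these classes share with those was not tested.

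The APEX-eIF4A pulldown at T0, which belongs to the same table but to other libraries, gave 50 IDs higher than in the T0 inputs (edgeR adjusted p under 0.05). All 10 leading IDs are among them. Of the 50, 28 are in the class depleted by eIF4A in naive cells and 3 in the class enriched by it. For those 28, the direction at T0 was thus opposite to that in the naive libraries of the same bait. The 50 held 36.6% of the counts of the 4 pulldowns and 0.19% of those of the DMSO input. Their median log2 fold change of hippuristanol over DMSO was 0.48, with 48 (96%) above 0 beside 51.2% of all tested IDs. Without overlap, 34 (68%) were higher and 0 lower, beside 18.8% and 9.61%. Among the better measured IDs, which hold 49 of the 50, the shares were 17.7% and 18.3%. The class median itself overlapped between groups, at 7.78 and 8.63 log2 CPM with hippuristanol and 7.87 and 7.52 with DMSO. Near-copies made up 27 of the 50, and of the other 23, with a median of 0.69, 11 were higher and 0 lower without overlap.

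**Figure D5:**
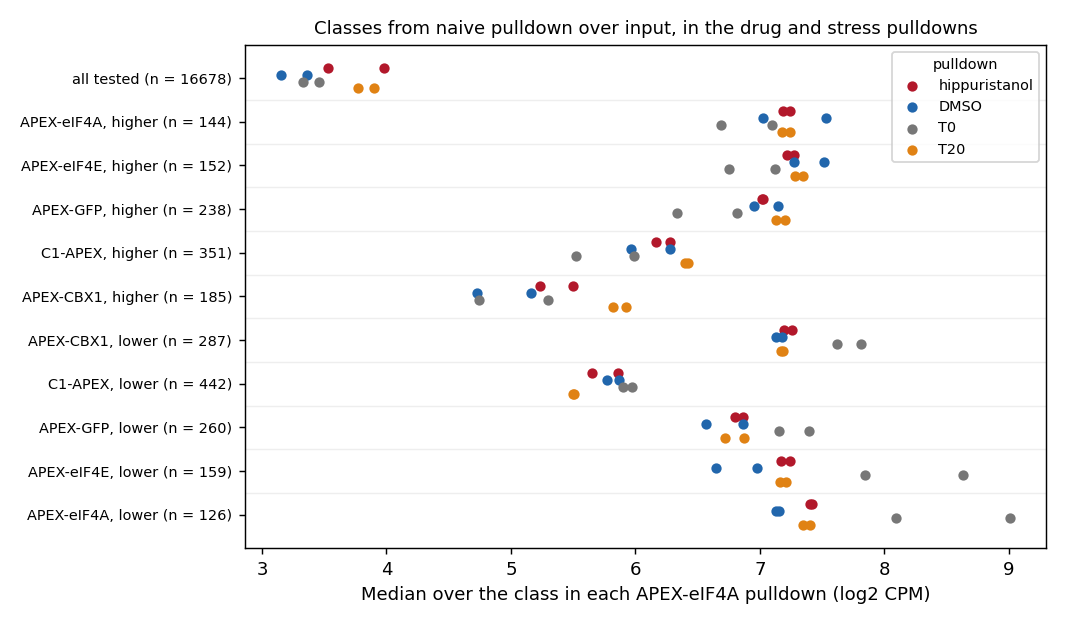
Median log2 CPM of each class in single APEX-eIF4A pulldowns, 2 points per condition. For the IDs depleted by eIF4A, hippuristanol (7.40 and 7.42) lies above DMSO (7.13 and 7.15) and below T0 (8.09 and 9.01), while for the IDs enriched by eIF4A the DMSO points enclose those of hippuristanol.

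Against T0, the pulldowns labelled naive, hippuristanol again gave 0 called IDs (0%) with edgeR and 358 with DESeq2. An unadjusted edgeR p under 0.05 was found for 1838 (11%), 1197 higher (7.18%) and 641 lower (3.84%). The count of edgeR calls was 5 without T0 pulldown replicate 1 and 1 without hippuristanol pulldown replicate 2. DMSO over T0 gave 85 calls (0.51%), 24 higher and 61 lower, and 3046 IDs (18.3%) at an unadjusted p under 0.05, 1274 higher (7.64%) and 1772 lower (10.6%). These comparisons share libraries with the first. Over the 61, the DMSO pulldowns had median levels of 3.01 and 3.51 log2 CPM, hippuristanol 5.76 and 5.94, and T0 6.59 and 6.51. Over the 24, the levels were 7.42 and 7.14 with DMSO, 6.64 and 6.37 with hippuristanol and 3.95 and 4.11 at T0. The sets were chosen on the DMSO and T0 values, so the place of hippuristanol between them is a description. The 85 calls rested on T0 pulldown replicate 2, without which there were 0, and were 20 and 188 without DMSO pulldown replicates 1 and 2. Scaling by library size without TMM turned the split to 66 higher and 23 lower, so the direction of this contrast depends on scaling.

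Heat shock, which also leads to stress granules, was set beside hippuristanol because its control, T0, is separate from DMSO. T20 over T0 called 24 IDs (0.144%) in pulldowns, 16 higher and 8 lower (edgeR), and 2858 (17.1%) had an unadjusted p under 0.05, 1710 higher (10.3%) and 1148 lower (6.88%). Leaving out T0 pulldown replicate 2 gave 0 calls, T0 pulldown replicate 1 54, T20 pulldown replicate 1 5 and T20 pulldown replicate 2 6. Library size scaling gave 67 higher and 7 lower. Over the 16 the median hippuristanol over DMSO log2 fold change was 0.42, and over the 8 it was 0.21. At the 16, levels were 6.72 and 6.21 log2 CPM with hippuristanol, 6.46 and 6.09 with DMSO, and 8.11 and 8.17 at T20, and hippuristanol overlapped DMSO. At the 8, levels were 5.84 and 6.10 with hippuristanol and 6.30 and 5.90 with DMSO, which also overlapped. An unadjusted p under 0.05 for hippuristanol over DMSO was found for 1 of the 16 and 0 of the 8. The 3 IDs higher in T20 than in T0 inputs did not overlap in pulldowns. Their medians were 8.41 and 8.72 log2 CPM with hippuristanol and 7.7 and 7.96 with DMSO. In T0 pulldowns they stood at 8.91 and 7.77. Median log2 fold changes of hippuristanol over DMSO were 0.51 for these 3 and 0.29 for the 4 IDs lower in T20 inputs. Across the 4168 better measured IDs, the log2 fold changes of hippuristanol over DMSO and of T20 over T0 had a Pearson correlation of 0.0057 and a Spearman correlation of 0.0021. The test of the difference between both effects called 0 IDs (0%) with edgeR, with 2413 (14.5%) at an unadjusted p under 0.05, 1448 higher (8.68%) and 965 lower (5.79%), and DESeq2 called 939. The edgeR count was 146 without DMSO pulldown replicate 2, 26 without T0 pulldown replicate 1 and 15 without DMSO pulldown replicate 1.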

How the data were processed

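The authors deposited 2 tables of raw counts, with 60483 versioned Ensembl gene IDs and 1 column per library. Per the submitters' processing notes, cutadapt, HISAT2 and featureCounts were used with GRCh38. The sources used here give no versions, no strand setting and no rule for reads with several matches, so overlapping genes and near-identical copies are uncertain. Totals were 707356 to 1221213 counts in the 9 pulldowns of the drug and stress table. Groups come from titles. The column of the DMSO input has a name that 2 sample descriptions hold, and was read as the DMSO input in this table.

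Counts were fitted with edgeR 4.0.16 in R 4.3.3 over the 17 libraries of that table: filterByExpr, TMM, 1 mean per group, robust glmQLFit, 2-sided quasi-likelihood F test, Benjamini-Hochberg adjustment over 16678 IDs and a threshold of 0.05. A standard error is the absolute log2 fold change over the root of F. Log2 CPM used a prior count of 2. The naive table was fitted likewise for the classes. Numbers of IDs at a common total are rarefaction expectations. DESeq2 1.42.0, other scalings, filters and sets of libraries, a replicate block and each library left out were alternatives. The named IDs are the 2 per direction with the smallest p among IDs of at least 5 mean log2 CPM whose groups do not overlap. Gene lists, and a description by transcript length and GC content, needed names and were not run. The comparison, its classes and lists were chosen with earlier results of these data known, and the classes after the files were seen.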

Additional observations from a re-analysis of the deposited data

How the results depend on the processing

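Directions of the 4 IDs were the same under all 11 alternatives run for hippuristanol over DMSO in pulldowns. These IDs were chosen for groups that do not overlap, so their direction could hardly turn and gives no support. The eIF4A-depleted and eIF4E-depleted class medians stayed above 0, at 0.27 to 0.52 and 0.24 to 0.52. Without DMSO pulldown replicate 1 these medians were 0.36 and 0.28, beside 0.24 over all tested IDs. Calls were few or many depending on the tool. DESeq2 called 721 IDs for hippuristanol over DMSO, 358 over T0, 1428 for DMSO over T0, 1116 for T20 over T0, 15 input-adjusted and 939 for the difference from heat shock. Without a count filter the counts were 31, 68, 187 and 141 for the first 4 of these pulldown comparisons, and 141 for the difference from heat shock. Library size in place of TMM gave 16 for hippuristanol over T0, 74 for T20 over T0 and 3 for the difference. The 9 pulldowns alone gave 9, 63 and 86 for hippuristanol over DMSO, over T0 and T20 over T0, and 59 for the difference. With only the libraries compared, DMSO over T0 and T20 over T0 gave 0. With 1 library left out, counts ran from 0 to 14 for hippuristanol over DMSO, 0 to 5 over T0, 0 to 188 for DMSO over T0, 0 to 54 for T20 over T0, 0 to 3 input-adjusted and 0 to 146 for the difference, and such a lone library was assumed to vary like the other groups. Same-numbered hippuristanol and DMSO pulldowns did not deviate together (correlation 0.0046 over 4168 IDs), so the numbers were not taken as pairs. The replicate block gave 0 calls for hippuristanol over DMSO (smallest edgeR adjusted p = 0.0546), 11 for T20 over T0 and 73 for DMSO over T0. Hippuristanol over DMSO in inputs stayed at 0 in all 7 alternatives, and leaving out the single DMSO input gives no value. The fit limited to IDs of at least 5 mean log2 CPM, chosen after seeing the data, called 0. Causes of these differences were not tested.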
